A study of Mus musculus with 15 samples.

Results

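Left ventricles of neonatal mice that had received adult T cells after a myocardial infarction were compared with left ventricles of neonatal mice that had an infarction and were left untreated. The comparison took 8 of the 15 libraries of the study, grouped by their labels. Both the comparison and the gene lists were chosen with earlier results of these data known. The recipients are libraries 1, 2, 4 and 5, and the controls are libraries 6, 7, 8 and 9. All 8 came from C57BL/6 mice with an experimental infarction, and the protocol names a time of 36 h after it, worded so that either the collection or the transfer of cells could be meant. The labels give neither the age in days nor the number, subset, donor strain or route of the T cells, and they name no control group that received other cells. They do not say that each library came from a different animal, so the p-values measure the spread between these libraries, which may be technical. The remaining 7 libraries, from adult hearts with adult T cells (4) or without (3), were in the same model. The study, by its title, is about what adult T cells do to the regeneration of the neonatal heart.

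A mouse heart injured soon after birth can regrow muscle through division of its cardiomyocytes, an ability it loses as it matures. Macrophages are required for that regrowth, depend on the receptor Csf1r for survival, and clear debris with lysosomal proteases. Activated T cells release interferon gamma, which induces chemokines, immunity-related GTPases and antigen presentation genes in macrophages and stromal cells. Each level is given as counts scaled to the size of the library (CPM), and each fold change is the log2 ratio of recipients to controls from edgeR with its standard error. In whole tissue, more cells of a type and more RNA per cell cannot be told apart.

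Depth ran from 21871617 to 34302786 counts per neonatal library, and 3 counts, the upper limit that a count of 0 allows for counting error, equalled 0.0875 to 0.137 CPM. Control 8 stood apart from the other 7 libraries. It lay at 53 on the first principal component (33.7% of the variance) while the others lay between -21.1 and 9.6, and 312 of 11651 genes were more than 2-fold from the mean of the other neonatal libraries, against 10 to 45 genes in each of the others. Its rank correlations with the other libraries were 0.9815 to 0.9903, against 0.9896 to 0.996 among those 7. The female transcript Xist had 15626 and 10182 counts in recipients 2 and 4, 10758 and 16472 in controls 6 and 9, and 3 to 145 in the other libraries, so both groups held libraries with and without it. Because of control 8, the fold changes and list medians are given with all libraries and without it, and another library is named where it decides a value.

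**Figure D1:**
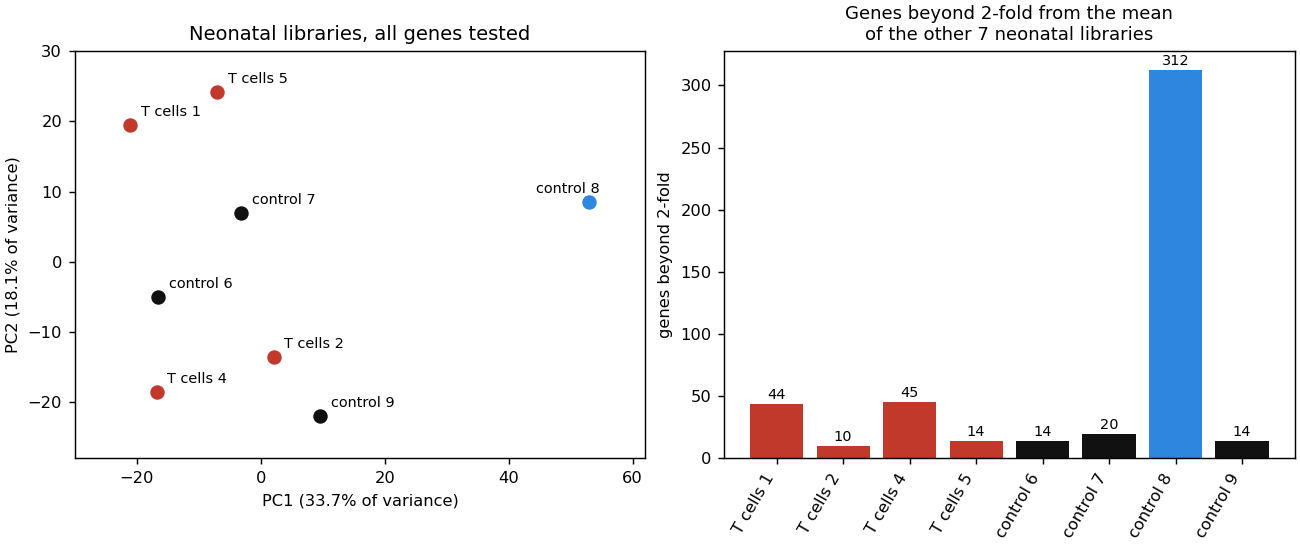
Left, the 8 neonatal libraries on the first and second principal components of log2 CPM over all genes tested (red, recipients of T cells; black, controls; blue, control 8). Right, the number of genes per library more than 2-fold from the mean of the other 7, among 11651 genes with at least 5 CPM: control 8 has 312, and the other libraries have 10 to 45.

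No gene passed the threshold of 0.05 after Benjamini-Hochberg adjustment in edgeR's quasi-likelihood test over 16437 genes (0.0% called), and the lowest adjusted p was 0.999. At an unadjusted p under 0.05 there were 336 genes higher in recipients (2.04% of those tested) and 177 lower (1.08%). Without control 8 again no gene passed, with 125 genes higher (0.76%) and 111 lower (0.675%) at an unadjusted p under 0.05. DESeq2 called 0 genes with all libraries (lowest adjusted p 0.0976, 513 genes at an unadjusted p under 0.05), and limma with voom called 0, with 719 genes at an unadjusted p under 0.05. Without control 8 both called 0 again, with 205 genes in DESeq2 and 343 in limma with voom at an unadjusted p under 0.05. Over all genes the fold change was above 0 in 49.9%, and in 49.3% without control 8. The median standard error was 0.114 on the log2 scale, and 0.118 without control 8. At an unadjusted p under 0.05 with all libraries and also without control 8 there were 169 genes, and all 169 had the same direction in both fits. Both fits share every library except control 8, so the shared direction is not independent support.

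One library decided the count of genes called. Without control 6, edgeR called 9 genes, all higher in recipients (0.0548% of genes tested). They are Csf1r, the survival receptor of macrophages (identifier 12978, chr18:61105572-61131139 on GRCm38.p6), the lysozyme Lyz1 (17110, chr10:117287795-117292868), Psap, precursor of the lysosomal saposins (19156, chr10:60277628-60302600), the cysteine protease Ctsh, the actin-binding macrophage marker Aif1, the myeloid receptors Cd300a and Clec4a1, the heparan sulphate-cleaving enzyme Hpse and the ubiquitin ligase Neurl3. Their adjusted p-values without control 6 lay between 0.0175 and 0.0445 in edgeR (1135 genes at an unadjusted p under 0.05 there), and with all libraries each was 0.999. Without control 8 none of the 9 passed, and their unadjusted p-values ran from 0.000554 (Lyz1) to 0.0733 (Aif1).

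Csf1r stood at 81.9, 66.2, 62.7 and 75.3 CPM in recipients 1, 2, 4 and 5 and at 69.4, 41.2, 27.9 and 44.4 CPM in controls 6, 7, 8 and 9. Control 6 was within the range of the recipients, while controls 7, 8 and 9 were below every recipient. The fold change of Csf1r was 0.65 ± 0.21 with all libraries, 0.46 ± 0.16 without control 8 and 0.92 ± 0.15 without control 6. Clec4a1 showed the same placing, at 8.74, 8.61, 9.20 and 9.08 CPM in recipients and 9.19, 3.85, 2.45 and 4.39 CPM in controls. Psap, among the most abundant lysosomal transcripts of the list, stood at 1233, 1004, 1101 and 978.5 CPM against 1003, 764.7, 603.4 and 770.6 CPM, a fold change of 0.46 ± 0.12 (0.34 ± 0.10 without control 8). In Hpse control 6 at 5.71 CPM exceeded recipient 2 at 4.94 CPM, and the other controls lay between 1.5 and 2.77 CPM. Of the 9 genes, Lyz1 alone did not overlap between the groups, where 0.627% of all genes tested were higher in recipients without overlap.

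Lyz1 stood at 12.9, 8.01, 7.76 and 8.26 CPM in recipients and 6.35, 4.45, 2.90 and 4.16 CPM in controls. Each recipient was above each control, and recipient 1 was highest. Its fold change was 1.05 ± 0.22 (unadjusted p 0.000165) and 0.89 ± 0.21 without control 8. The neighbouring gene Lyz2 (chr10:117277541-117282272), a near-identical copy, stood at 338, 208, 203 and 215 CPM against 208, 128, 62.6 and 114 CPM, a fold change of 0.91 ± 0.32 (0.68 ± 0.27 without control 8). Reads can be split between these copies, so the level of Lyz1 by itself is uncertain.

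**Figure D2:**
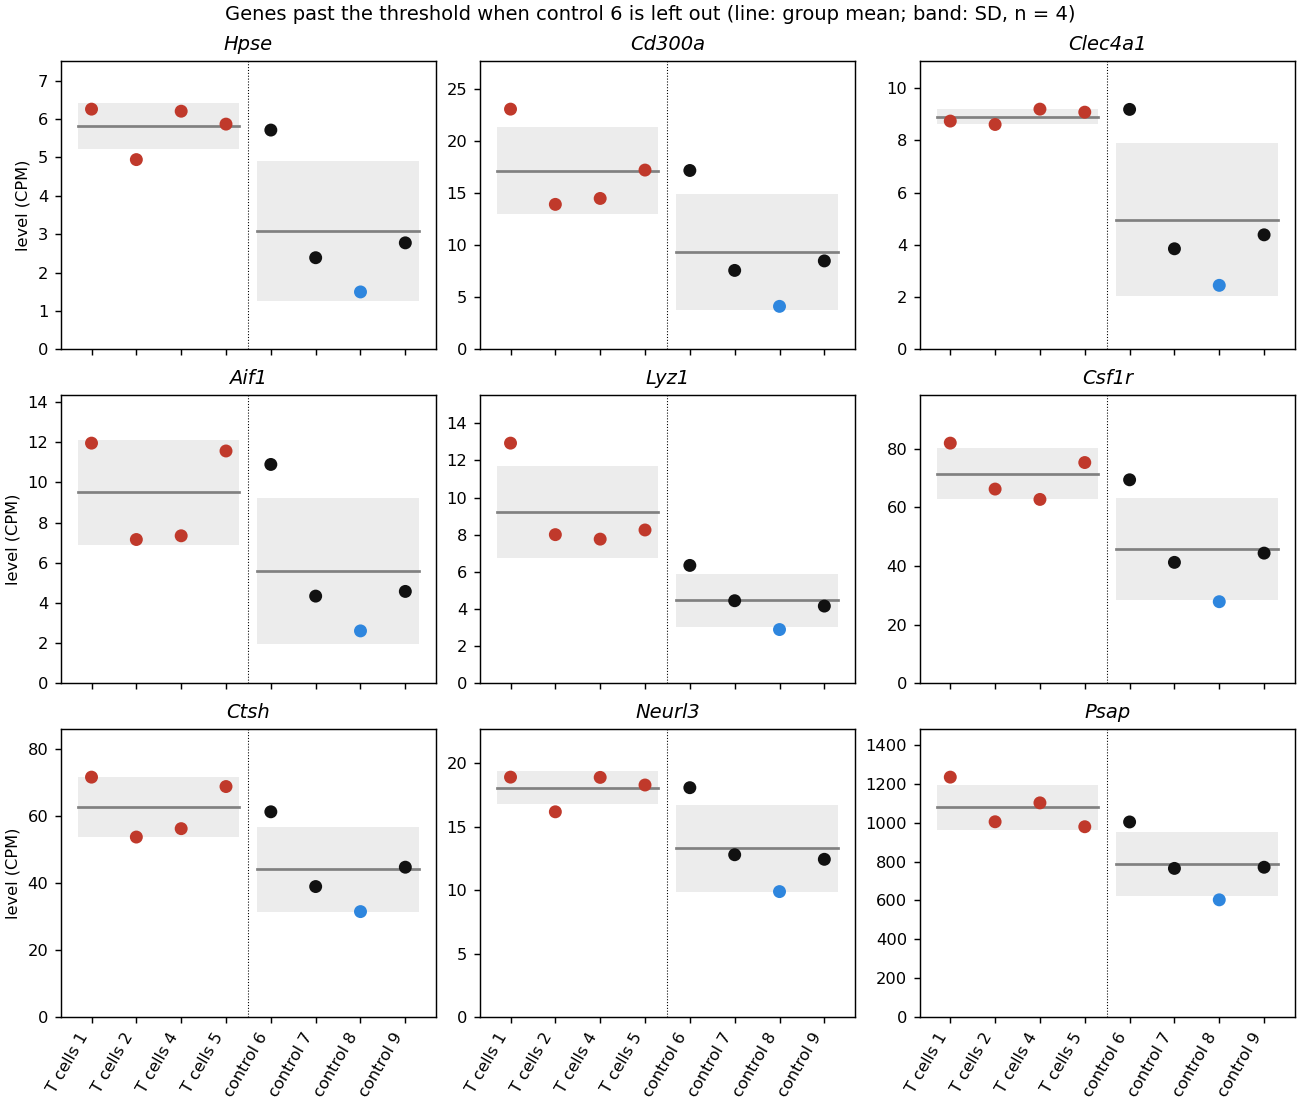
Levels in CPM of the 9 genes that edgeR called without control 6, by library, on axes that start at 0 (red, recipients; black, controls; blue, control 8; line and band, mean and SD of each group of 4). Control 6 lies at the level of the recipients for every gene but Lyz1, and controls 7, 8 and 9 lie lower.

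Macrophage identity genes were placed the same way as a group. All 18 tested genes of the pan-macrophage list had a fold change above 0, with a median of 0.59, against a median of -0.00017 over all genes tested. At the level of single genes, 7 of 18 were higher at an unadjusted p under 0.05, where 2.04% of all genes were, and 0 of 18 passed the adjusted test. Without control 8 again 18 of 18 were above 0, with a median of 0.38 and 4 under 0.05, where 0.76% of all genes were. Without control 6 the median was 0.99. Control 8 was below all 4 recipients in 18 genes, controls 7 and 9 in 15 each, and control 6 in 0. The summed level of the list was 944 to 1361 CPM in recipients, and 1114, 626.5, 296.8 and 620.2 CPM in controls 6, 7, 8 and 9. Adgre1, which encodes the surface antigen F4/80, stood at 46.5, 32.5, 29.3 and 35.4 CPM against 35.5, 19.6, 10.2 and 22 CPM, a fold change of 0.72 ± 0.29 (0.48 ± 0.20 without control 8). The fractalkine receptor Cx3cr1 stood at 15.8 ± 2.69 CPM in recipients and 11.8 ± 2.18 CPM in controls (SD, n = 4 each), a fold change of 0.42 ± 0.15 and 0.38 ± 0.16 without control 8. Because control 6 was never below all recipients, the groups overlapped in each of the 18 genes.

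Fc receptors and the adaptors that signal for them had the highest median of the 59 lists with at least 3 tested genes when all libraries were used, but not without control 8. All 16 genes were above 0, with a median of 0.63 and 6 under an unadjusted p of 0.05 (2.04% of all genes), and without control 8 all 16 were above 0 with a median of 0.36 and 3 under 0.05 (0.76% of all genes). The activating receptor Fcgr3 stood at 47.4, 30.6, 34.2 and 33.5 CPM in recipients and 36.2, 24.5, 13.2 and 21.4 CPM in controls (0.61 ± 0.23, and 0.41 ± 0.16 without control 8). The inhibitory receptor Fcgr2b stood at 11.5 ± 0.934 CPM against 7.05 ± 3.72 CPM (SD, n = 4 each), with control 6 at 12.4 CPM and the other controls at 3.95 to 6.11 CPM (0.71 ± 0.28, and 0.50 ± 0.25 without control 8). The kinases differed less: Lyn had a fold change of 0.22 ± 0.08 (0.23 ± 0.08 without control 8) and Syk 0.25 ± 0.09 (0.17 ± 0.09).

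Lysosomal proteases and lipid-degrading enzymes had 15 of 16 genes above 0 and a median of 0.36. Of the 59 lists this one had the most genes at an unadjusted p under 0.05, 11 of 16 where 2.04% of all genes were higher at that p, of which 0 passed after adjustment. Without control 8 the median was 0.21, with 5 genes under 0.05, where 0.76% of all genes were. Controls 7 and 9 were below all recipients in 13 and 15 of the 16 genes, and control 6 in 0. Hexa, a subunit of the enzyme that degrades gangliosides, stood at 142, 104, 111 and 126 CPM against 115, 95.2, 70.5 and 86.7 CPM (0.40 ± 0.12, and 0.28 ± 0.11 without control 8). Lipa, the lysosomal acid lipase, had a fold change of 0.41 ± 0.14 (0.28 ± 0.12 without control 8).

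Monocyte and resident macrophage genes were listed separately, and no test compared the lists. In the monocyte list 11 of 12 genes were above 0 with a median of 0.50 (10 of 12 and 0.26 without control 8, and also 0.26 without recipient 4). Ccr2, the receptor that brings monocytes into inflamed tissue, stood at 10.8, 9.55, 9.54 and 11.1 CPM in recipients and 10.7, 3.80, 1.82 and 6.75 CPM in controls. Control 6 again matched the recipients, and the fold change was 0.84 ± 0.46 (0.53 ± 0.37 without control 8). In the resident macrophage list 8 of 12 were above 0 with a median of 0.32 (10 of 12 and 0.12 without control 8, and 0.14 without recipient 1). There the lectin Clec10a stood at 2.04, 1.33, 2.11 and 1.7 CPM against 1.67, 0.950, 0.542 and 0.562 CPM (0.94 ± 0.33, and 0.75 ± 0.34), and the scavenger receptor Stab1 at 138 ± 15.6 CPM against 108 ± 25.9 CPM (SD, n = 4 each; 0.36 ± 0.15, and 0.20 ± 0.10 without control 8). F13a1, a transglutaminase of resident macrophages, had a fold change of 0.69 ± 0.34 (0.45 ± 0.28 without control 8).

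Wound macrophage genes had all 17 tested members above 0 (median 0.33), and without control 8 it had 16 of 17 with a median of 0.11. The median was 0.14 without recipient 1 and 0.19 without recipient 4. Their spread between libraries was wide. Spp1, which encodes osteopontin, stood at 931, 573, 1059 and 314 CPM in recipients and 597, 492, 106 and 372 CPM in controls, a fold change of 0.88 ± 0.90 (0.55 ± 0.93 without control 8). Arg1, the arginase of repair macrophages, stood at 34.4, 19.6, 41.2 and 6.74 CPM against 30.7, 34.8, 1.02 and 9.07 CPM. Recipient 5 was the second lowest library for both genes, after control 8, and the Arg1 fold change of 0.43 ± 0.85 was 0.03 ± 0.68 without control 8. Fabp5 and Cd9, with fold changes of 0.24 ± 0.12 and 0.21 ± 0.11, had the smallest p-values of the list (0.0564 and 0.0723, unadjusted; 0.163 and 0.177 without control 8).

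The complement list had 12 of 16 genes above 0 with a median of 0.46, and 10 of 16 with 0.15 without control 8. The initiators C1qa and C1qb stood at 102, 67.4, 64.6 and 99.6 CPM against 88.8, 57.8, 31.5 and 46.6 CPM, and at 172, 110, 118 and 155 CPM against 145, 91.0, 42.7 and 72.3 CPM. Their fold changes were 0.57 ± 0.27 and 0.66 ± 0.30 (0.37 ± 0.22 and 0.43 ± 0.23 without control 8). The anaphylatoxin receptor C3ar1 had a fold change of 0.63 ± 0.33 (0.36 ± 0.21 without control 8).

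**Figure D3:**
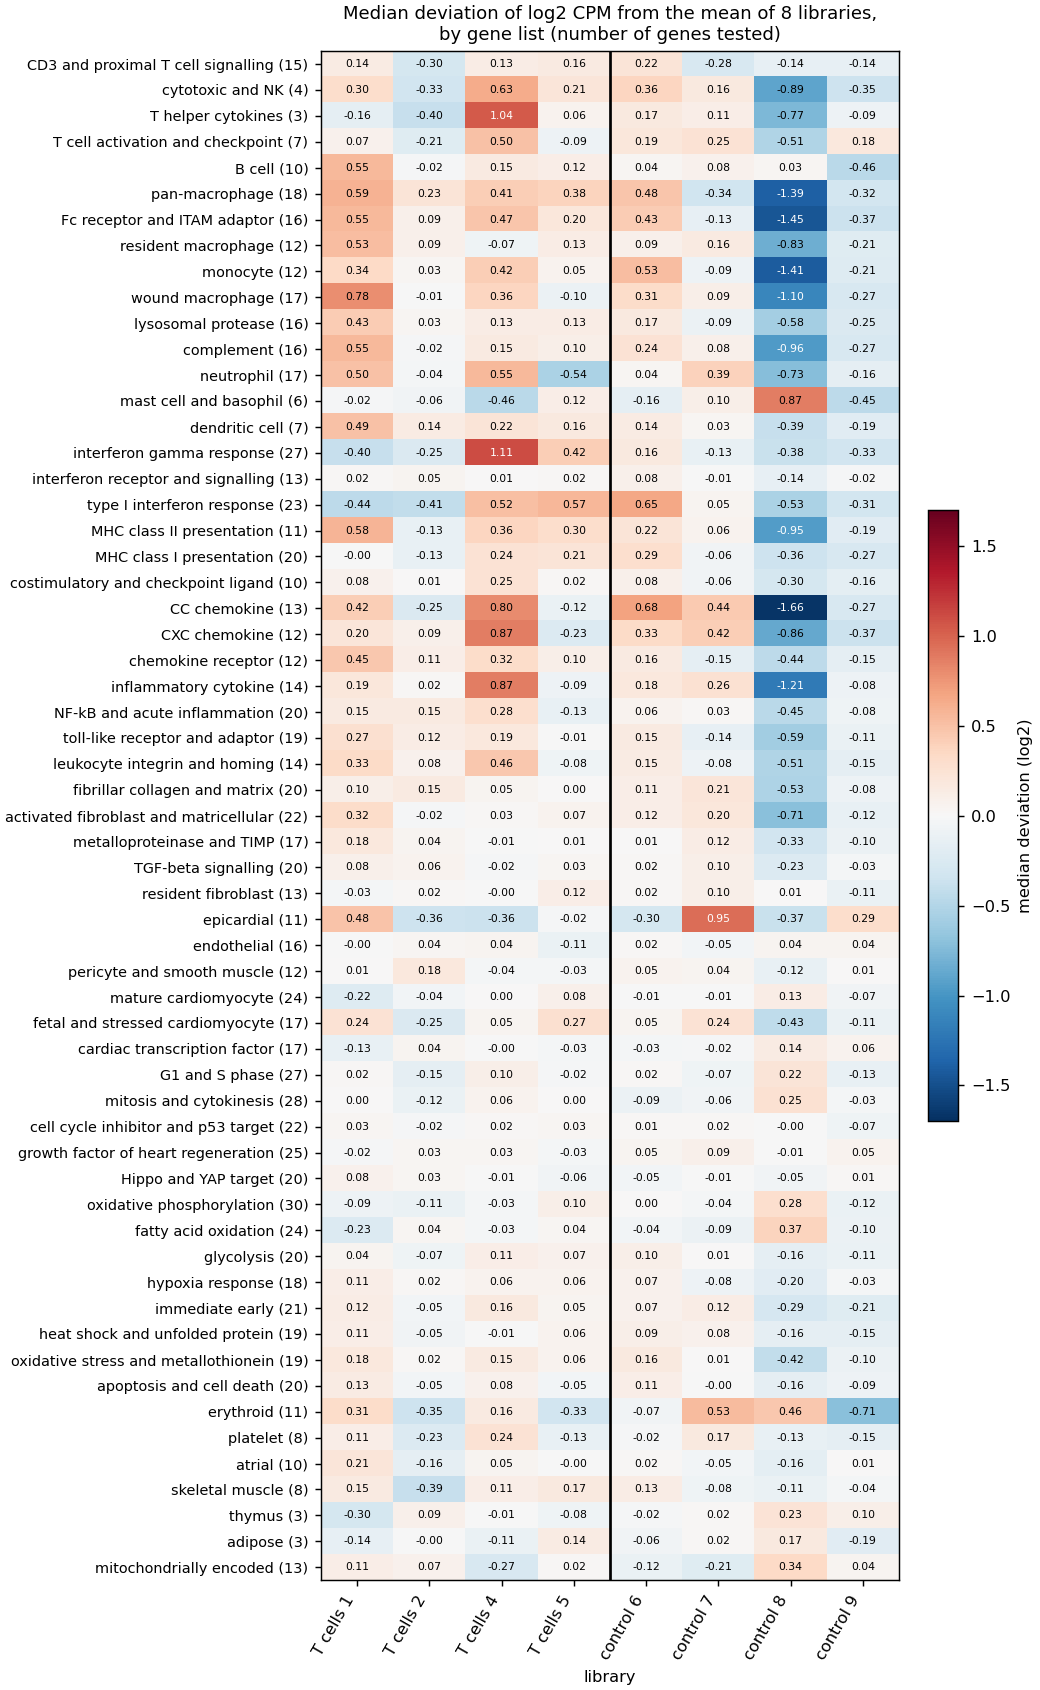
Median deviation of log2 CPM from the mean of the 8 neonatal libraries for each gene list with at least 3 tested genes (number in brackets; columns, libraries; recipients left of the line). Control 8 is lowest of 8 in 38 of the 59 lists and highest in 11, and the interferon gamma response stands at 1.11 in recipient 4 and 0.42 in recipient 5.

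Transcripts of the transferred cell type were at the edge of detection in both groups. The 4 chains of the CD3 complex, the signalling part of the T cell receptor, summed to 1.29, 0.650, 1.74 and 1.32 CPM in recipients 1, 2, 4 and 5 and to 2.06, 0.938, 0.781 and 0.861 CPM in controls 6, 7, 8 and 9. The highest value was that of control 6, a library labelled as untreated. The means were 1.25 ± 0.448 and 1.16 ± 0.604 CPM (SD, n = 4 each), and an exact two-sided permutation test gave p = 0.8, where 0.0286 is the smallest p that 4 against 4 can give. The sum of Cd3e, Cd3d and Cd3g alone, tried after the data were seen, differed by 0.252 CPM with an exact permutation p of 0.371. Without control 8 the control mean was 1.29 ± 0.672 CPM (SD, n = 3), the difference was -0.0393 CPM, and the exact permutation p was 1.0. Single chains had few reads: Cd3e was at 1 to 8 counts in recipients and 1 to 6 in controls, and Cd3d at 2 to 9 and 1 to 11. The co-receptor Cd4 was at 15 to 32 and 20 to 31 counts, and Cd8a at 2 to 6 and 1 to 5.

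In the wider list of proximal T cell signalling 9 of 15 genes were above 0 with a median of 0.08, and 7 of 15 with -0.03 without control 8. The costimulatory receptor Cd28 stood at 3.35, 2.85, 1.98 and 2.26 CPM against 2.48, 1.47, 1.18 and 1.31 CPM (0.71 ± 0.29, and 0.58 ± 0.30 without control 8). Cd247, which encodes the zeta chain, stood at 0.479, 0.394, 0.549 and 0.521 CPM against 1.06, 0.543, 0.478 and 0.487 CPM. Control 6 was above every other library, and the fold change was -0.41 ± 0.28 (-0.53 ± 0.29 without control 8). The T cell activation and checkpoint list had 4 of 7 genes above 0 with a median of 0.23, and 2 of 7 with -0.05 without control 8. Without recipient 4 its median was -0.11. In it Havcr2, which macrophages and dendritic cells also express, had a fold change of 0.34 ± 0.16 (0.22 ± 0.16 without control 8). Lag3 was lower in recipients, at -0.36 ± 0.22 (-0.45 without control 8).

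Among the 4 tested genes of the cytotoxic and NK list, granzyme A was the 1 whose groups did not overlap. Of all genes tested, 0.627% were higher in recipients without overlap, and 1.2% without control 8. The list had 3 of 4 above 0 with a median of 0.06, and 1 of 4 with -0.14 without control 8. With all libraries and without control 8, the fold changes were -0.42 and -0.34 for Klrb1c, 0.09 and -0.24 for Ccl5, and 0.03 and -0.04 for Ctsw. Gzma had 13, 12, 13 and 12 counts in recipients 1, 2, 4 and 5 and 6, 6, 1 and 1 counts in controls 6, 7, 8 and 9, or 0.364 to 0.549 CPM against 0.0319 to 0.213 CPM. Each recipient was above each control, with and without control 8. The fitted fold change of Gzma was 1.94 ± 0.61 (unadjusted p 0.0049), and 1.63 ± 0.62 (unadjusted p 0.0168) without control 8, and its adjusted p in edgeR was 0.999 and 1.0. Gzmb, another granzyme, had 5, 0, 16 and 3 counts against 5, 3, 0 and 1, and the pore-forming Prf1 had 2, 0, 2 and 6 against 0, 5, 1 and 2. Neither of these separated the groups. Among cytokines of T cells, Ifng had 0, 1, 15 and 7 counts in recipients and 0, 1, 0 and 0 in controls, so its reads came from recipients 4 and 5.

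Genes induced by interferon gamma were highest in the recipient with the most Ifng reads. In 25 of the 27 tested genes recipient 4 was the highest of the 8 libraries. The median deviation of the list from the mean of all 8 libraries was -0.40, -0.25, 1.11 and 0.42 log2 units in recipients 1, 2, 4 and 5, and 0.16, -0.13, -0.38 and -0.33 in controls 6, 7, 8 and 9. Recipients 1 and 2 were thus within or just below the range of the controls. The list median of the fold change was 0.55 with 25 of 27 genes above 0, and 0.40 with 25 of 27 without control 8. Without recipient 4 the median was 0.08. Higher at an unadjusted p under 0.05 were 2 of 27 genes, where 2.04% of all genes were. Without control 8 it was 1 of 27, where 0.76% of all genes were.

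Promoters of these genes were searched for the letters through which interferons are known to act. Of the 27 tested genes, 18 had a promoter in the RefSeq table on GRCm38.p6, and the 250 bases before each start were searched on both strands. The motifs were the gamma-activated site TTCNNNGAA, through which interferon gamma is known to act, and the interferon-stimulated response element GAAANNGAAA. The windows shown are from genes described next that hold such letters, printed 5′ to 3′ on the strand of the gene, with the matched letters in capitals.
Irf8, chr8:120736162-120736238: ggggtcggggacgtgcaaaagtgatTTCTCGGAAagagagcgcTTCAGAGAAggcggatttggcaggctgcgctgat
Gbp2, chr3:142620579-142620638: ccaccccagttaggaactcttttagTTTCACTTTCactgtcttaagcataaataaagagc
Gbp7, chr3:142530205-142530317: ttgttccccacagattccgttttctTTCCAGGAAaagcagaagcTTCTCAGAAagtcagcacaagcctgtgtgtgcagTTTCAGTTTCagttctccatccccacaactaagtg
Igtp, chr11:58199486-58199555: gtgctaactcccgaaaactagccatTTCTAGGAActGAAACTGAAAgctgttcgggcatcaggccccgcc
Irgm2, chr11:58214877-58214947: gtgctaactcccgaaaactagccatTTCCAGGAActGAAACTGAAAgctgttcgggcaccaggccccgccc
Cxcl10, chr5:92349068-92349127: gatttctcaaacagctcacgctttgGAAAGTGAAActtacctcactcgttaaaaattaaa
Irf8 holds the gamma-activated letters 2 times and no response element, Gbp2 and Cxcl10 a response element alone, and Gbp7, Igtp and Irgm2 both kinds.

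Of the 18 promoters, 8 (44.4%) held the gamma-activated letters, against 8.13% of all 27025 promoters of the table, and 10 (55.6%) held the response element, against 3.46%. Either was in 14 (77.8%), against 11.1%, and both were in 4 (22.2%), against 0.459%. In the 17 promoters of the tested type I interferon list the shares were 17.6% and 47.1%, and 52.9% held either. The lists were drawn up with knowledge of how these genes are induced, and a match of letters is a description, not a site.

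Irf8, the transcription factor of the monocyte lineage whose window has the gamma-activated letters 2 times, stood at 30.4, 25.8, 37.0 and 33.5 CPM in recipients and 29.3, 20.6, 15.8 and 20.8 CPM in controls. Recipients 4 and 5 were highest for Irf8, and control 6 stood among the recipients as it did for the macrophage genes. Its fold change was 0.55 ± 0.18 (0.42 ± 0.16 without control 8). Cxcl10 and Cxcl9, chemokines that attract T cells, were highest in recipient 4, and the second highest library was control 6 for Cxcl10 and recipient 5 for Cxcl9. Cxcl10 stood at 0.778, 1.06, 16.3 and 3.61 CPM against 5.04, 1.25, 0.701 and 1.01 CPM (1.43 ± 0.98, and 1.14 ± 1.06 without control 8), and Cxcl9 at 0.299, 0.334, 4.30 and 1.87 CPM against 0.852, 1.08, 1.15 and 0.15 CPM (0.98 ± 0.84, and 1.17 ± 0.97). Without recipient 4 both fold changes turned negative, to -0.17 for Cxcl10 and -0.08 for Cxcl9.

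The GTPases of the printed windows, which were chosen after their values were seen, were highest in recipients 4 and 5. Gbp2 stood at 7.37, 7.85, 47.0 and 18.1 CPM in recipients and 11.4, 13.1, 8.35 and 8.21 CPM in controls (0.95 ± 0.51, and 0.85 ± 0.58 without control 8), and Igtp at 8.26, 9.07, 31.1 and 21.1 CPM against 13.7, 8.87, 10.1 and 9.41 CPM (0.71 ± 0.44, and 0.68 ± 0.51). Recipients 4 and 5 were above every control, and recipient 1 was below every control for both genes. Without recipient 4 the fold changes were 0.09 for Gbp2 and 0.27 for Igtp. Irgm2 at 10.6, 12.3, 24.3 and 18.2 CPM against 16.2, 13.3, 12.7 and 12.9 CPM had a fold change of 0.24 ± 0.29 (0.19 ± 0.33 without control 8), and Gbp7 0.18 ± 0.22 (0.10 ± 0.24). The list members with the smallest p-values after Irf8 were Slamf8, a receptor of activated myeloid cells (1.35 ± 0.54, and 1.07 ± 0.54 without control 8), and Serpina3g, a protease inhibitor (0.81 ± 0.40, and 0.53 ± 0.32).

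**Figure D4:**
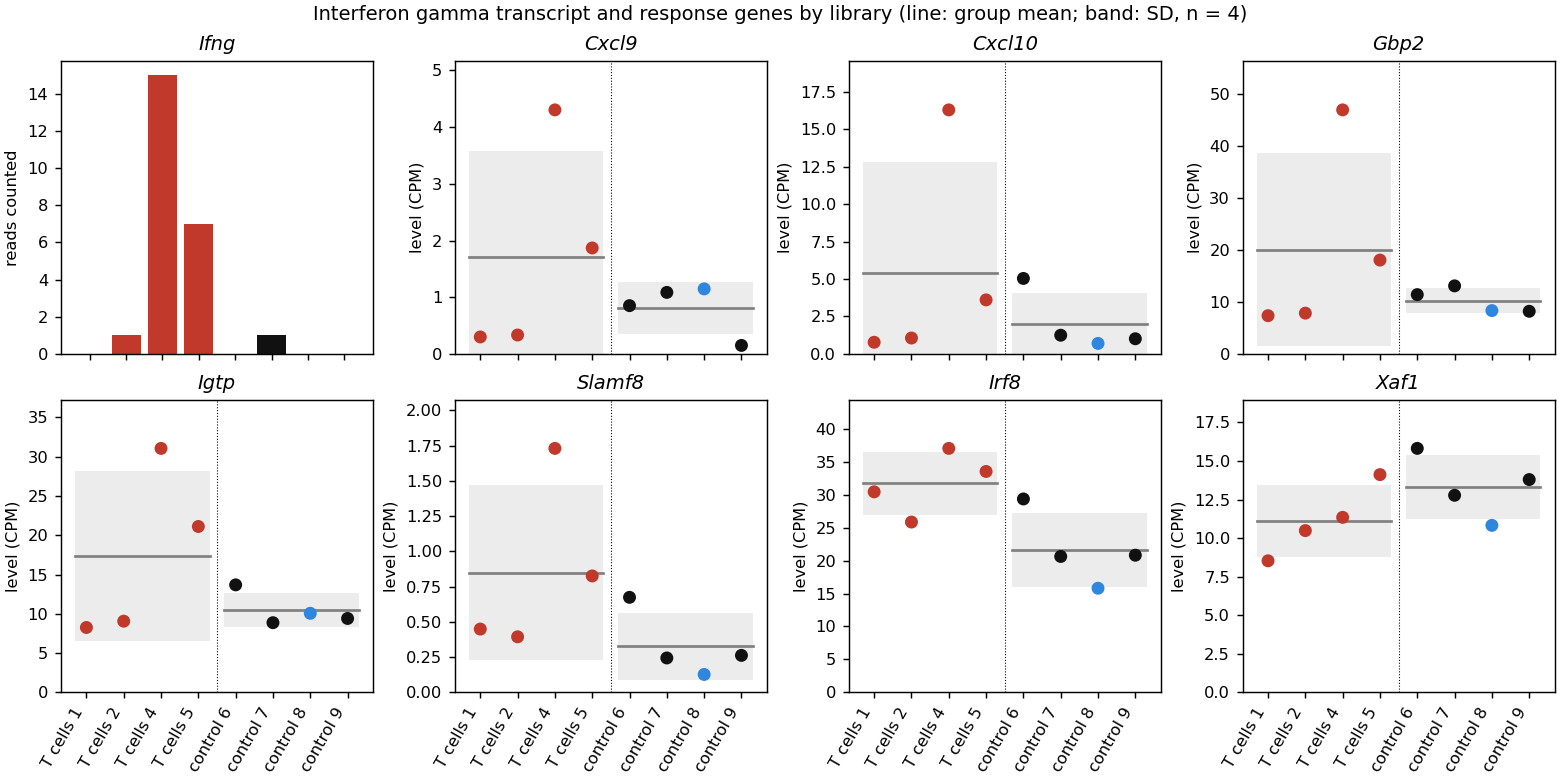
Reads of Ifng (bars) and levels in CPM of interferon-induced genes (points) by library, on axes that start at 0 (red, recipients; black, controls; blue, control 8; line and band, mean and SD of each group of 4). Ifng had 15 reads in recipient 4 and 7 in recipient 5 and at most 1 elsewhere. Gbp2 was at 47.0 CPM in recipient 4. Irf8 was also highest in recipients 4 and 5, with every recipient above every control but control 6. Xaf1 was highest in control 6.

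In the type I interferon list recipients 4 and 5 were also above recipients 1 and 2, but control 6 had the highest list median. Control 6 was the highest library in 16 of 23 genes, and the list medians per library were -0.44, -0.41, 0.52 and 0.57 log2 units in recipients and 0.65, 0.05, -0.53 and -0.31 in controls. Over the list 12 of 23 genes were above 0 with a median of 0.01, and 5 of 23 with -0.16 without control 8. The median was 0.36 without control 6. The antiviral gene Xaf1 stood at 8.53, 10.5, 11.3 and 14.1 CPM against 15.8, 12.8, 10.8 and 13.8 CPM (-0.26 ± 0.14, unadjusted p 0.0852; -0.36 ± 0.14, unadjusted p 0.023 without control 8). Receptors and signalling proteins for interferons had a list median of 0.06 (0.01 without control 8) over 13 genes.

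Antigen presentation genes were low in control 8. In the MHC class II list 11 of 11 genes were above 0 with a median of 0.48 (11 of 11 and 0.28 without control 8), and control 8 was the lowest library in 10. At an unadjusted p under 0.05 were 0 of 11, where 2.04% of all genes were higher and 1.08% lower. Cd74, the invariant chain of class II molecules, stood at 24.1, 12.1, 21.3 and 20.2 CPM against 17.9, 16.1, 8.41 and 13 CPM (0.49 ± 0.30, and 0.30 ± 0.29 without control 8). Recipient 2 was below 3 of the 4 controls. H2-DMa, which loads peptides onto class II molecules, had a fold change of 0.48 ± 0.23 (0.28 ± 0.21 without control 8), and the lysosomal reductase Ifi30 0.43 ± 0.24 (0.20 ± 0.15). The class I list had 17 of 20 genes above 0 with a median of 0.18, and 18 of 20 with 0.08 without control 8.

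Among ligands that T cells read, Cd86 was higher in all 4 recipients than in all 4 controls, as were 0.627% of all genes tested. This costimulatory ligand stood at 3.65, 3.31, 6.16 and 3.30 CPM in recipients and 3.12, 3.09, 1.85 and 2.77 CPM in controls. The gap between recipient 5 and control 6 was small, and recipient 4 was highest. Its fold change was 0.59 ± 0.21 (unadjusted p 0.0111) and 0.44 ± 0.20 (unadjusted p 0.0466) without control 8. The checkpoint ligand Vsir stood at 49.0, 43.9, 47.3 and 38.5 CPM against 42.9, 34.6, 33.2 and 31.7 CPM (0.33 ± 0.10, and 0.29 ± 0.11 without control 8). The list of 10 genes had 8 above 0 and a median of 0.18, with 7 and 0.16 without control 8. In the dendritic cell list 6 of 7 genes were above 0 with a median of 0.48 (6 of 7 and 0.25 without control 8), led by Cd83, a marker of mature dendritic cells (0.48 ± 0.17, and 0.47 ± 0.19). The growth factor receptor Flt3, at 0.808, 0.576, 0.802 and 0.826 CPM against 0.284, 0.488, 0.0956 and 0.412 CPM, did not overlap between the groups (1.204 ± 0.573, and 0.889 ± 0.561 without control 8).

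Chemokine list medians were near 0 without control 8 and also without recipient 4. CC chemokines had 11 of 13 genes above 0 with a median of 0.32, and 7 of 13 with a median of 3.3e-05 without control 8, which was the lowest library in 10 of them. CXC chemokines had 10 of 12 and 0.30, and 6 of 12 and 0.03 without control 8. Without recipient 4 the medians were 0.061 for CC and 0.036 for CXC chemokines. Chemokine receptors had 10 of 12 genes above 0 with a median of 0.46, and 10 of 12 with 0.23 without control 8. Ccl2, which attracts monocytes, stood at 25.4, 12.9, 37.4 and 13.1 CPM in recipients and 25.1, 25, 2.55 and 11.4 CPM in controls, and its fold change of 0.47 ± 0.54 was 0.10 ± 0.36 without control 8. The membrane chemokine Cxcl16 stood at 20.5, 18.8, 16.2 and 19.2 CPM against 19.4, 13.6, 11.8 and 14.1 CPM (0.35 ± 0.14, and 0.25 ± 0.14 without control 8). The neutrophil attractant Cxcl1 had a fold change of 0.73 ± 0.28 (0.60 ± 0.29), and the receptor Ccr1 0.63 ± 0.33 (0.34 ± 0.20).

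Inflammatory cytokines had 12 of 14 genes above 0 (median 0.43; 13 of 14 and 0.20 without control 8), and recipient 4 was the highest library in 9. Without recipient 4 the median was 0.14. The anti-inflammatory Il10 stood at 0.329, 0.273, 0.802 and 0.739 CPM against 0.390, 0.407, 0.127 and 0.300 CPM (0.74 ± 0.42, and 0.47 ± 0.42). Il6 had fold changes of 0.81 ± 0.53 and 0.40 ± 0.41, the gp130 ligand Osm 0.82 ± 0.57 and 0.41 ± 0.41, and Tnf 0.38 ± 0.39 and 0.21 ± 0.40, with all libraries and without control 8. The adhesion molecule Icam1, an NF-kB target, stood at 15, 12.7, 23.1 and 13.8 CPM against 13.3, 11.9, 8.16 and 12.1 CPM (0.51 ± 0.18, and 0.37 ± 0.17). The inflammasome protease Casp1 had fold changes of 0.69 ± 0.27 and 0.49 ± 0.25, and the RNA sensor Tlr8 0.73 ± 0.32 and 0.47 ± 0.26. The NADPH oxidase subunit Cybb of phagocytes stood at 21.2, 20.6, 19.2 and 25.2 CPM against 21.3, 11, 7.39 and 15.4 CPM (0.65 ± 0.28, and 0.43 ± 0.23).

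Neutrophil genes were 13 of 17 above 0 with a median of 0.20, and 9 of 17 with 0.01 without control 8 and a median of -0.01 without recipient 4. Control 7 was the highest library in 7 of them. B cell genes were 8 of 10 above 0 with a median of 0.26, and 8 of 10 with 0.27 without control 8, and the median was 0.08 without recipient 1. Cd22, an inhibitory receptor of B cells, stood at 2.84, 2.03, 2.15 and 2.22 CPM in recipients and 1.99, 1.33, 0.892 and 1.09 CPM in controls. Each recipient was above each control, as in 0.627% of all genes tested. The fold change was 0.81 ± 0.24 (unadjusted edgeR p 0.00356), and 0.65 ± 0.24 (unadjusted edgeR p 0.0149) without control 8. The B cell marker Ms4a1 did not follow Cd22, with 9 to 34 counts in recipients and 14 to 52 in controls.

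Matrix and fibroblast list medians were near 0 without control 8, and that of fibrillar collagen turned negative. Fibrillar collagen and matrix genes were 19 of 20 above 0 with a median of 0.10, and 8 of 20 with -0.02 without control 8, which was the lowest library in 18. Col1a1, the main fibrillar collagen chain, stood at 1398, 1576, 1748 and 1529 CPM in recipients and 1664, 1820, 737 and 1215 CPM in controls. The fold change of Col1a1 was 0.20 ± 0.32 with all libraries and -0.01 ± 0.30 without control 8. Genes of activated fibroblasts were 22 of 22 above 0 with a median of 0.17, and 15 of 22 with 0.04 without control 8. Postn, which encodes periostin, stood at 1373, 1317, 1093 and 1316 CPM against 1290, 1275, 1041 and 1218 CPM (0.08 ± 0.13, and 0.01 ± 0.13), and Cthrc1, secreted by scar fibroblasts, had fold changes of 0.34 ± 0.27 and 0.14 ± 0.23. The transcription factor Meox1 of activated fibroblasts had 0.23 ± 0.16 and 0.11 ± 0.15. Resident fibroblast genes were 6 of 13 above 0 (8 of 13 without control 8). Metalloproteinases and their inhibitors had medians of 0.11 and 0.02, and TGF-beta signalling 0.09 and 0.01, with all libraries and without control 8.

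Growth factor signals were near 0 in most cases. The list of growth factors tied to heart regeneration had 11 of 25 genes above 0 with a median of -0.02, and 8 of 25 with -0.06 without control 8. Igf1, which macrophages secrete, stood at 82.3, 65.2, 57.9 and 71.9 CPM against 65.7, 58.6, 54.7 and 56.7 CPM (0.24 ± 0.10, unadjusted p 0.0369; 0.19 ± 0.11, unadjusted p 0.0945 without control 8). Nrg1, a mitogen for neonatal cardiomyocytes, stood at 51.2, 32.7, 41.3 and 47.9 CPM against 41.7, 47.0, 35.2 and 37.5 CPM (0.10 ± 0.12, and 0.03 ± 0.12). The groups overlapped in both genes. Fgf1 was the list's only member lower at an unadjusted p under 0.05, at 62.1 ± 5.51 CPM against 69.8 ± 4.36 CPM (SD, n = 4 each; -0.17 ± 0.08, and -0.14 ± 0.08). Tgfb1 had fold changes of 0.15 ± 0.11 and 0.06 ± 0.11, and its receptor Tgfbr1 0.18 ± 0.10 and 0.12 ± 0.11.

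The medians of the phase lists of the cell cycle turned from negative to positive when control 8 was left out, and that of cell cycle inhibitors and p53 targets stayed negative, at -0.026 and -0.018. Mitosis and cytokinesis genes were 6 of 28 above 0 with a median of -0.05, and 17 of 28 with 0.02 without control 8, which was the highest library in 23 of them. G1 and S phase genes were 10 of 27 with -0.03, and 19 of 27 with 0.06. Mki67, the proliferation antigen, stood at 142, 145, 146 and 137 CPM in recipients and 137, 164, 172 and 161 CPM in controls. Controls 7, 8 and 9 were above every recipient, and control 6 was level with the lowest recipient. The fold change of Mki67 was -0.15 ± 0.08 (unadjusted p 0.0722), and -0.12 ± 0.08 (unadjusted p 0.166) without control 8. The cyclin Ccnd1 stood at 102, 113, 120 and 114 CPM against 109, 104, 139 and 105 CPM (-0.03 ± 0.09, and 0.07 ± 0.07).

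With all libraries no cardiomyocyte list had a median beyond 0.11 in either direction. Mature cardiomyocyte genes were 3 of 24 above 0 with a median of -0.08, and 11 of 24 with -0.02 without control 8. Myh6, the fast ventricular myosin of the mouse, stood at 7303, 10336, 12563 and 11662 CPM in recipients and 12097, 11455, 10218 and 11833 CPM in controls, so the labelled tissue was rich in muscle transcripts in every library and recipient 1 was lowest. Its fold change was -0.12 ± 0.13 (-0.18 ± 0.13 without control 8). The fetal isoform Myh7 had fold changes of 0.04 ± 0.16 and -0.09 ± 0.15, and cardiac troponin Tnnt2 -0.07 ± 0.08 and -0.05 ± 0.08. The natriuretic peptides spread widely: Nppa stood at 7110, 3167, 4469 and 6156 CPM against 5199, 5691, 1533 and 4377 CPM (0.32 ± 0.76, and 0.03 ± 0.80), and Nppb had fold changes of 0.61 ± 0.35 and 0.39 ± 0.33. Cardiac transcription factors were 3 of 17 above 0 with a median of -0.07, and 5 of 17 with -0.04 without control 8. Among them Hand1, a factor of ventricular development, stood at 3.41, 2.31, 2.45 and 2 CPM against 2.02, 1.82, 2.07 and 1.54 CPM (0.45 ± 0.21, unadjusted p 0.0472; 0.50 ± 0.23, unadjusted p 0.0459 without control 8), and the cofactor Myocd had fold changes of -0.19 ± 0.09 and -0.20 ± 0.10. Atrial tissue was scarce in all libraries, with Sln at 1 to 6 counts and Myl7 at 98 to 300 counts.

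The medians of oxidative phosphorylation and fatty acid oxidation turned from negative to positive when control 8 was left out, and that of glycolysis stayed above 0, at 0.05 (17 of 20 above 0) and 0.006 (12 of 20) without control 8. Oxidative phosphorylation genes were 0 of 30 above 0 with a median of -0.08, and 17 of 30 with 0.01 without control 8, which was the highest library in all 30. Fatty acid oxidation genes were 1 of 24 with -0.09, and 19 of 24 with 0.02. Ppara, the receptor that drives fatty acid oxidation, had fold changes of -0.23 ± 0.14 and -0.15 ± 0.15, and the glycolysis regulator Pfkfb3 0.36 ± 0.14 and 0.20 ± 0.10. The share of counts from the 13 mitochondrially encoded genes was 12.7% ± 1.23 in recipients and 13.2% ± 2.1 in controls (SD, n = 4 each), with an exact two-sided permutation p of 0.714. Without control 8, which stood at 16.03%, the control share was 12.3% ± 1.19 (SD, n = 3), the difference was 0.407 percentage points, and the exact permutation p was 0.686.

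**Figure D5:**
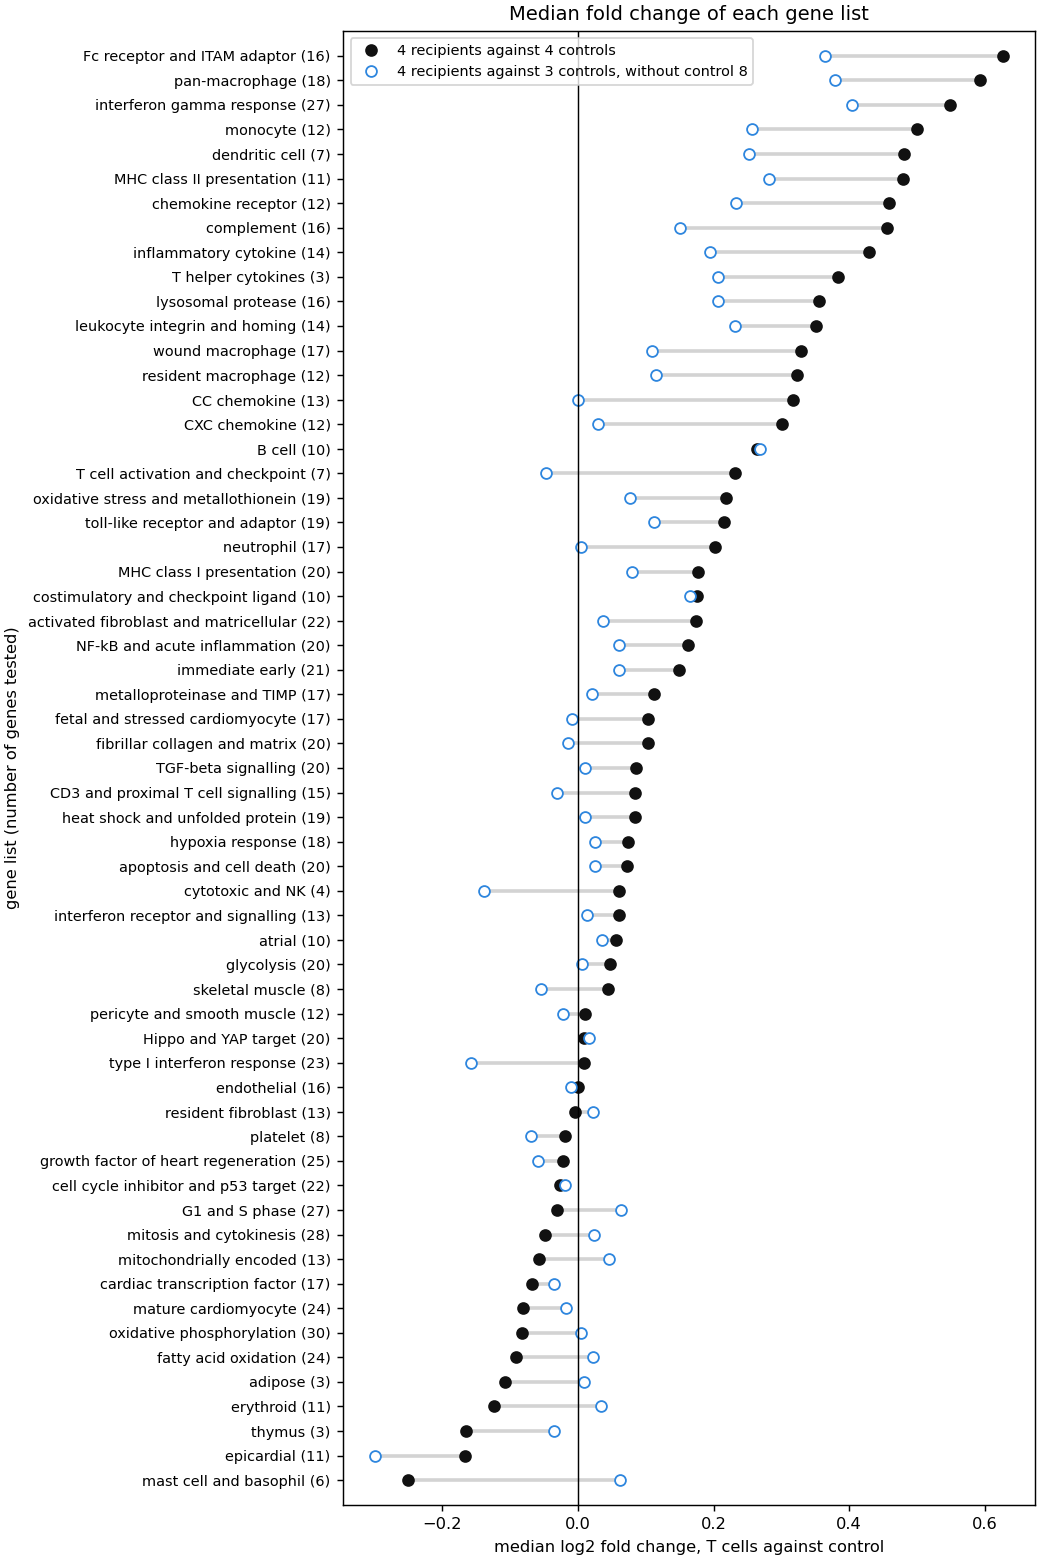
Median log2 fold change (recipients against controls) of each gene list with at least 3 tested genes (number in brackets), with all 8 libraries (filled) and without control 8 (open). Medians lie closer to 0 without control 8 in 47 of 59 lists and change sign in 18, while the pan-macrophage, Fc receptor and interferon gamma medians go from 0.59, 0.63 and 0.55 to 0.38, 0.36 and 0.40.

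Across the 59 lists, 43 medians were above 0 with all libraries and 43 without control 8. The median changed sign in 18 lists and lay closer to 0 in 47 when control 8 was left out. The genes lowest in control 8 among those with at least 5 CPM included Arg1, Cfb, Ccl7, Ccl2 and Il1rn. The complement factor Cfb was at 0.765 CPM in control 8 and at 4.39 to 12.2 CPM in the other 7 neonatal libraries, and the interleukin-1 antagonist Il1rn at 1.34 CPM against 3.61 to 35.8 CPM. Lowest of all in control 8 was the female transcript Xist, at -7.76 log2 units from the other controls. The highest against the other controls were the Y-linked genes Eif2s3y, Uty, Kdm5d and Ddx3y, followed by others that included Timp4 and Ucp3. Most of these sex-linked genes did not set control 8 apart from all other neonatal libraries. Another library was above it for Eif2s3y (72.8 against 67.9 CPM), Kdm5d and Ddx3y, though not for Uty. For Xist another library was lower (0.130 against 0.414 CPM). The mitochondrial carrier Ucp3 was at 41.2 CPM against 7.69 to 25.4 CPM. The macrophage, inflammatory, matrix and muscle lists thus differed together in control 8, and the part of tissue composition or sampling in this was not tested.

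Each recipient was above each control in 103 genes (0.627% of those tested) and below each control in 121 (0.736%). Without control 8 these were 197 (1.2%) and 207 (1.26%). With an unadjusted p under 0.05 and at least 5 CPM, and without predicted genes, 26 were higher and 17 lower, and 10 and 11 of these also had an unadjusted p under 0.05 without control 8. The largest differences upward after Lyz1 were in Ms4a4a, a membrane protein of macrophages, in the oxidase Cyp4v3 and in Il6ra, the interleukin-6 receptor. Ms4a4a stood at 6.65, 5.22, 5.02 and 5.39 CPM in recipients and 5.0, 2.96, 1.69 and 3.23 CPM in controls (0.80 ± 0.24, and 0.58 ± 0.21 without control 8). Il6ra stood at 7.87, 5.88, 5.57 and 6.13 CPM against 5.43, 4.07, 2.39 and 4.88 CPM (0.61 ± 0.22, and 0.41 ± 0.19), and Cyp4v3 had fold changes of 0.65 ± 0.23 and 0.44 ± 0.20. In Ms4a4a and Il6ra control 6 was the highest control, close below the lowest recipient.

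The sorting nexin Snx10 stood at 18.1, 15.2, 17.0 and 14.8 CPM against 14.5, 12.9, 11.1 and 13 CPM (0.34 ± 0.10, and 0.26 ± 0.10 without control 8). The transcriptional repressor Bhlhe40 stood at 66.9, 56.2, 69.3 and 60 CPM against 52.9, 54.8, 47.2 and 52.5 CPM (0.28 ± 0.11, and 0.23 ± 0.12). The adenylate cyclase Adcy7, the lipase Daglb and the scavenger receptor Colec12 had fold changes of 0.46 ± 0.18, 0.34 ± 0.11 and 0.34 ± 0.13, and 0.27 ± 0.14, 0.23 ± 0.10 and 0.26 ± 0.13 without control 8. In contrast to the macrophage lists, the heme-binding protein Hebp1 was not lowest in control 8, at 14.3, 10.7, 11.2 and 11.4 CPM against 9.19, 10.2, 10.5 and 9.45 CPM (0.27 ± 0.12, and 0.30 ± 0.13).

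Of all genes tested, 121 (0.736%) were lower in every recipient than in any control. Those named here were picked for that placing and for an unadjusted p under 0.05, so neither is separate support. Nrtn, which encodes the neurotrophic ligand neurturin (chr17:56751323-56757548), stood at 4.79, 7.88, 10.5 and 11.7 CPM in recipients and 12.9, 13.6, 14.1 and 12 CPM in controls. The controls were close together and the recipients spread from 4.79 to 11.7 CPM, so the gap between the groups was narrow. Its fold change was -0.61 ± 0.22, and -0.59 ± 0.24 without control 8. Kansl3, a subunit of a histone acetyltransferase complex (chr1:36335730-36369193), stood at 77.4, 85.0, 85.9 and 86.0 CPM against 89.6, 98.8, 102 and 97.0 CPM (-0.21 ± 0.06, unadjusted p 0.00358; -0.20 ± 0.07, unadjusted p 0.0105 without control 8). The anion exchanger Slc26a6 stood at 6.08, 5.64, 5.70 and 6.39 CPM against 6.88, 7.11, 7.04 and 7.12 CPM (-0.24 ± 0.11, and -0.25 ± 0.12), and the zinc finger gene Zfp949 had fold changes of -0.24 ± 0.10 and -0.27 ± 0.11. Without control 8 the fold changes of these 4 genes moved by less than their standard errors.

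Among markers of tissues that could be carried along, those of thymus, lung and fat were few in both groups. Thymus transcripts Rag1, Ptcra and Dntt were at 0 to 5, 0 to 2 and 0 to 3 counts in recipients and at 0 to 1, 0 to 3 and 0 to 4.14 in controls. The lung marker Scgb1a1 had 0, 22, 4 and 0 counts in recipients and at most 0.25 in controls, and Sftpc had 0 to 2 in both. The fat marker Adipoq was at 0 to 4 and 0 to 5 counts. Of the skeletal muscle markers, Myh4 was at 1.92 to 2.67 and 0 to 3.58 counts, but Tnnt3 was at 147.5 to 316 and 125 to 458 counts. The skeletal muscle list had 5 of 8 genes above 0 with a median of 0.04, and 4 of 8 with -0.05 without control 8. Its member Myh1 had a fold change of 0.76 ± 0.35 (unadjusted edgeR p 0.0435; 0.93, unadjusted p 0.0271 without control 8). Erythroid genes were 0 of 11 above 0 with a median of -0.12, and 6 of 11 with 0.03 without control 8, and Hba-a1 ranged from 10777 to 23450 counts in recipients and from 7692 to 31681 in controls.

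The same contrast in adult hearts, which uses other libraries and the same model, was set beside these values. The median fold change in adults was -0.06 for pan-macrophage genes (8 of 18 above 0), -0.03 for Fc receptors and adaptors (8 of 16) and 0.09 for the interferon gamma response (19 of 27). Csf1r had a fold change of -0.05 in adults, Lyz1 -0.03, Ms4a4a -0.43 and Ccr2 -1.01. The monocyte median was -0.07 (5 of 12). Adult medians were above 0 for lysosomal proteases (0.23, 14 of 16), wound macrophage genes (0.22, 14 of 17) and MHC class II (0.45, 11 of 11). They were also above 0 for T cell signalling genes (0.52, 12 of 15) and oxidative phosphorylation (0.27, 30 of 30). Cd4 had a fold change of 1.05 in adults and 0.03 in neonates.

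The difference between the ages was tested directly, and the time of collection in adults is not given in the sources used here. No gene passed the adjusted threshold for the difference of the T cell effect, neonatal minus adult, in edgeR (0.0% called, lowest adjusted p 0.182, 2511 genes at an unadjusted p under 0.05), and no gene passed without control 8 (lowest adjusted p 0.242). DESeq2 called 53 genes with a higher effect in neonates and 64 with a lower effect, and 20 and 20 without control 8. For Csf1r the difference was 0.70 ± 0.31 (adjusted p 0.314 in edgeR), for Lyz1 1.08 ± 0.35 (0.197), for Cx3cr1 0.72 ± 0.22 (0.182), for Vsir 0.51 ± 0.15 (0.182) and for Cd4 -1.02 ± 0.42 (0.258). Without control 8 these differences were 0.50 ± 0.23, 0.90 ± 0.32, 0.66 ± 0.22, 0.46 ± 0.15 and -1.10 ± 0.44, with adjusted p-values from 0.242 to 0.324 in edgeR. Ccr2 and Ms4a4a had differences of 1.54 ± 0.58 and 0.99 ± 0.37 without control 8 (adjusted p 0.271 and 0.259 in edgeR). Some other macrophage genes had smaller differences without control 8: 0.01 ± 0.46 for Aif1, 0.08 ± 0.38 for Fcgr2b and 0.12 ± 0.14 for Psap. These values do not show that the effect of adult T cells on macrophage genes differed between neonatal and adult hearts, nor that it was equal.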

How the data were processed

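Polyadenylated RNA of left ventricles was sequenced with a stranded kit, per the labels' protocols. The authors deposited expected counts, that is estimated counts per gene of which 61.07% of the non-zero values are whole; the counting rule for strand, feature and shared reads is not given in the sources used here. Per the submitters' processing notes the tools were bcl2fastq 2.20.0.422, cutadapt 2.5, STAR 2.7.2b, featureCounts 1.6.4 and DESeq2 1.24.0, with the build GRCm38.p6.

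Counts were rounded and genes kept by filterByExpr (minimum count 10, total 15; 16437 of 39331). edgeR 4.0.16 in R 4.3.3 fitted 15 libraries with 1 coefficient per group, TMM scaling and robust quasi-likelihood tests, with Benjamini-Hochberg adjustment over all genes at a threshold of 0.05. The standard error is the fold change over the root of its F statistic. The scripts were tested on simulated data. Single values were compared by exact two-sided permutation over libraries. Alternatives were RLE, DESeq2 1.42.0, limma 3.58.1 with voom, other filters, unrounded counts, the neonatal libraries alone, each library left out and, chosen after seeing the data, a term for sex from Xist, the CD3 sum without Cd247, and DESeq2 and voom without control 8.

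The comparison and the 60 gene lists were chosen with earlier results of these data known. Named genes were taken from those called in any setting that leaves out 1 library, the 12 largest differences each way among genes with no overlap, an unadjusted p under 0.05 and at least 5 CPM, up to 4 members of each list with the smallest p, the 10 genes highest and lowest in control 8, and a fixed set of marker genes. A few others are named as checks. Some genes that the rule takes are not reported here. Depth was 21871617 to 34302786 counts per neonatal library, and 3 counts were taken as the limit that a count of 0 allows.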

Additional observations from a re-analysis of the deposited data

Results flagged for a closer look

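In groups of 4, a library is listed here when its gap to the nearest other library is a larger part of the group's range than Dixon's 95% critical value, which chance alone gives in about 1 in 20 groups. Recipients and controls were screened for each of the 59 lists, for the CD3 sum and mitochondrial share, and for named genes. With so many groups, flags of this kind arise by chance, and none was tested further. Control 6 was apart with the highest CD3 sum, 2.061 CPM, and the highest Cd247, 1.064 CPM. Control 8 was apart with the lowest median deviation of T cell activation genes, -0.5108 log2 units, the highest of fatty acid oxidation, 0.3725, the lowest Osm, 0.03186 CPM, and the highest Ccnd1, 139.3 CPM. Control 9 was apart with the lowest median deviation of B cell genes, -0.4563, and the lowest Cxcl9, 0.15 CPM. Recipient 1 was apart with the highest Lyz1, 12.93 CPM, Lyz2, 337.7 CPM, Lipa, 86.34 CPM, and Adcy7, 28.83 CPM, and the lowest Kansl3, 77.39 CPM. Recipient 2 was apart with the lowest median deviation of CD3 and proximal signalling genes, -0.3003, and of skeletal muscle genes, -0.3864, and the lowest Flt3, 0.5762 CPM. Recipient 4 was apart with the highest Gbp8, 1.603 CPM, and Cd86, 6.161 CPM. Recipient 5 was apart with the lowest Syk, 51.54 CPM.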

How the results depend on the processing

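No paired analysis was possible because the neonatal groups compared share no replicate numbers. The number of genes called in neonatal hearts was 0 in edgeR with all libraries and ran from 0 to 9 when 1 library was left out, with the 9 obtained without control 6. DESeq2 called 117 genes for the difference between neonatal and adult effects, and 40 with control 8 also left out, a setting chosen after seeing the data, where edgeR called 0; the cause was not tested. Leaving out 1 library moved the difference in summed CD3 transcripts between -0.0763 and 0.387 CPM and that in the mitochondrially encoded share between -1.14 and 0.407 percentage points. The direction of named genes was compared with RLE, with DESeq2, with the neonatal libraries alone and with each neonatal library left out. Of 128 named genes 116 kept their direction in all of these settings. The other 12 reversed when 1 library was left out, with log2 fold changes from -0.52 to 0.69 for Cd3d, -0.15 to 0.17 for Cd4, -0.18 to 0.58 for Tnf, -0.014 to 0.40 for Irgm2, -0.082 to 1.36 for Cxcl9, -0.17 to 2.42 for Cxcl10, -0.010 to 0.37 for Col1a1, -0.073 to 0.069 for Ccnd1, -0.22 to 0.015 for Myh6, -0.085 to 0.15 for Myh7, -0.22 to 0.61 for Ccl7 and -0.65 to 0.16 for Ucp3. Of the lists, the interferon gamma response had a median between 0.08 and 0.66, and without recipient 4 those of CC chemokines, CXC chemokines and inflammatory cytokines were 0.061, 0.036 and 0.14.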
